A study of Mus musculus with 24 samples.

Results

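The horizontal cell genes Onecut1, Onecut2, Onecut3, Lhx1, Prox1, Tfap2b, Calb1 and Sept4 were taken by symbol from the gene count table, on chromosomes 1 to 19 or X. All 8 symbols were found among 45594 genes, and all 8 passed the filter on low counts that left 21858 genes for testing. The samples were whole retinas of untreated C57/Bl6N mice, with no genotype or other agent named in the labels, taken on embryonic days 11, 12, 14 and 16 (E11 to E16) and postnatal days 0, 2, 4, 6, 10, 14, 21 and 28 (P0 to P28). Each of the 12 stages had 2 libraries of polyadenylated RNA, 24 in all, and the study asked how the retinal transcriptome changes with development. The labels do not say whether the 2 libraries of a stage came from separate animals or pools, so each p-value here reflects how far these libraries of a stage differ, which could be technical.

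Horizontal cells are inhibitory interneurons of the outer retina that receive signals from rods and cones and feed back onto them. They are born early, from progenitors that pass through a state marked by the forkhead factor Foxn4 and then the bHLH factor Ptf1a. The Onecut factors and Prox1 act in their specification, the Tfap2 factors in their differentiation, and the LIM homeodomain factor Lhx1 in their migration to the right layer, while the calcium buffer calbindin (Calb1) is a standard marker of the mature cells. Few of these genes belong to horizontal cells alone: Onecut genes are also used in ganglion cell and cone precursors, Tfap2b and Calb1 in amacrine cells, and Prox1 in amacrine, bipolar and glial cells and in the lens. In whole retina, fewer cells of a type and less RNA per cell cannot be told apart.

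Library totals ran from 24567532 to 35898879 estimated counts. The retinal factors Rax and Pax6 were detected in all 24 libraries. The summed level of 8 lens genes was 3224 CPM (counts scaled to a common library size) in E11 replicate 1, 3086 in E12 replicate 2 and 2308 in E14 replicate 2, against 23.0, 228 and 63.3 CPM in the other library of each of those stages and at most 95.3 CPM in any library from E16 on. No lens gene was at 0 in those 6 libraries. The 6 red cell genes summed to 3149 and 7580 CPM in E11 replicates 1 and 2. Libraries of E11 and E12 were made from less total RNA than the others, per the labels. An effect of input on the changes from E11 to E14 and from E12 to E14 therefore cannot be told apart from age.

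The 8 genes followed different courses. The 3 Onecut genes had their highest stage mean at E14, Tfap2b at P2, Lhx1, Prox1 and Sept4 at P14, and Calb1 at P28. All 8 differed over the 12 stages, as did 77.1% of all genes tested, where a gene was called at an adjusted p under 0.05 and a range of fitted stage means of at least 2-fold (edgeR quasi-likelihood F test, Benjamini-Hochberg over all genes). Their adjusted p ran from 3.41e-17 for Sept4 to 0.000271 for Prox1.

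**Figure D1:**
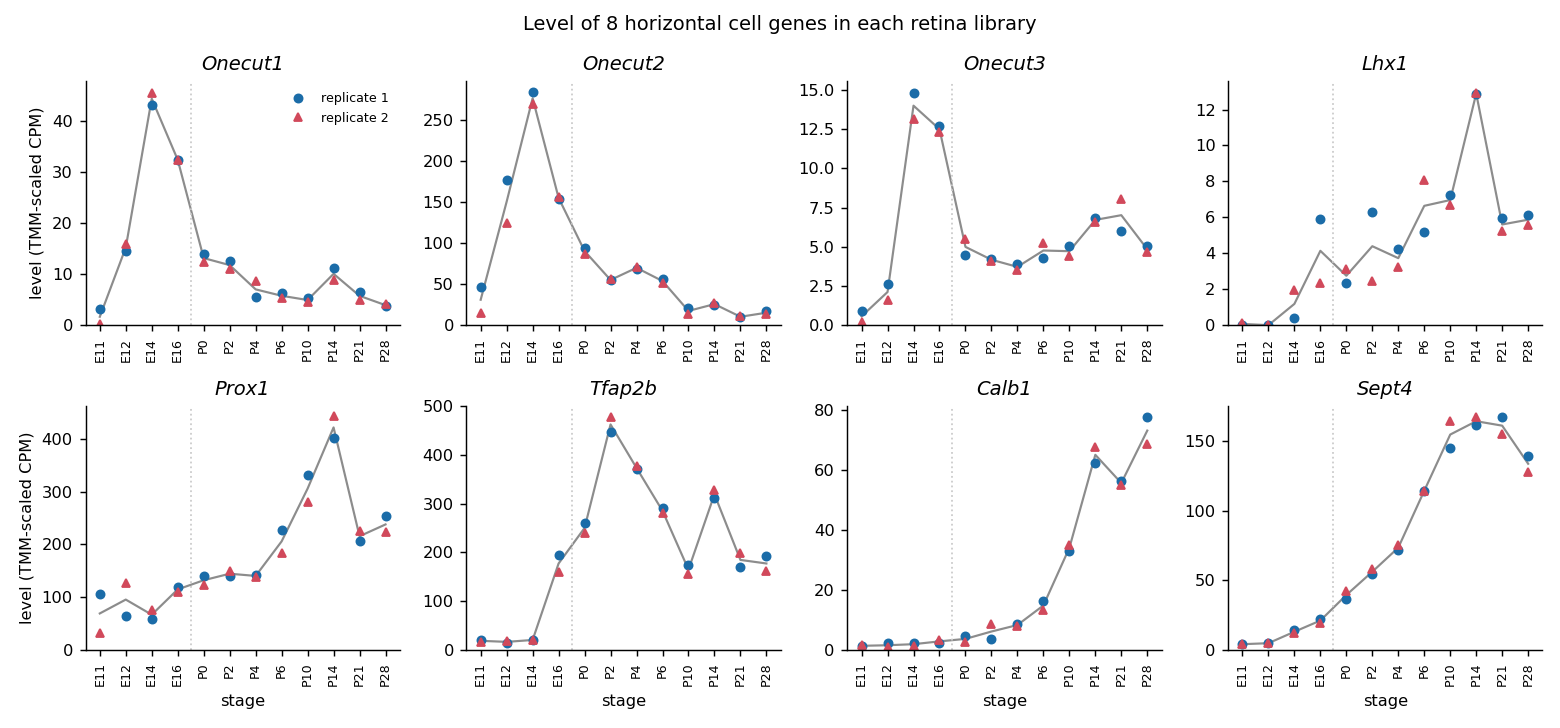
Level of each of the 8 genes (vertical axes, TMM-scaled CPM, each starting at 0) by stage, with 1 point per library and a line through the stage means; the dotted line separates embryonic from postnatal stages. The Onecut genes peak at E14, Tfap2b at P2, Lhx1, Prox1 and Sept4 at P14, and Calb1 at P28.

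Onecut1 (ENSMUSG00000043013, protein coding, plus strand, chr9:74861921-74891781 of GRCm38) encodes a homeodomain factor with a cut domain that is needed for most horizontal cells to form. Levels are given throughout in CPM scaled by the trimmed mean of M values (TMM), with replicate 1 first. Onecut1 stood at 3.15 and 0.137 at E11, at 14.6 and 15.85 at E12, at 43.2 and 45.6 at E14 and at 32.5 and 32.4 at E16. After birth it stood at 13.97 and 12.4 at P0, 12.6 and 10.99 at P2, 5.47 and 8.57 at P4, 6.29 and 5.24 at P6, and 5.36 and 4.51 at P10. It then read 11.3 and 8.84 at P14, 6.52 and 4.99 at P21, and 3.79 and 4.06 at P28. Both E14 libraries lay above every other library, E16 came next and did not overlap E12 or P0, and P28 lay above only E11. The 2 libraries of E11 differed 23.0-fold, with 4 counts in replicate 2, the library with more red cell RNA.

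Onecut1 rose by 3.20 ± 0.59 (log2, SE) from E11 to E12 (adjusted p = 0.00187) and by 1.54 ± 0.51 from E12 to E14 (adjusted p = 0.0395). The sizes of the changes from E11 depended on its libraries: without E11 replicate 1 the E11 to E12 change was 6.75 and without replicate 2 it was 2.27, and over E11 to E14 the change of 4.74 became 8.30 and 3.82, with the call kept each time. It fell by 1.76 ± 0.51 from E14 to P0 (adjusted p = 0.0137) and by 1.42 ± 0.53 from P0 to P10 (adjusted p = 0.0379). No step after E14 passed on its own. The E12 to E14 call was lost in 18 of 31 alternative fits (adjusted p 5.13e-06 to 0.164 over all of them) and the P0 to P10 call in 14 of 31 (7.26e-06 to 0.164), with the size of the change between 1.49 and 1.62 and between -1.63 and -1.30. The fall from E14 to P0 lost its call without E14 replicate 2 (adjusted p = 0.0553), P0 replicate 1 (0.0627) or P0 replicate 2 (0.0814), within a range of 6.24e-07 to 0.0814 over its 31 alternatives.

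Onecut1 shares 29556 bases with the same-strand noncoding gene Gm20649 in the GENCODE M21 annotation of GRCm38, so the split of reads between them is uncertain. Gm20649 was listed at 25.4 ± 4.6 CPM (SD, n = 2) at E14 and 3.59 ± 0.20 at P28, and it too was highest at E14. Of the 2 annotated Onecut1 transcripts, the coding one took at least 90.5% of the estimated counts in each library.

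Onecut2 (ENSMUSG00000045991, protein coding, plus strand, chr18:64340364-64398488) is a paralog that acts partly in place of Onecut1 in horizontal and ganglion cell formation. It stood at 46.8 and 15.2 CPM at E11, 177 and 124 at E12, 284 and 269 at E14, and 154 and 157 at E16. From birth it stood at 94.6 and 86.2 at P0, 54.5 and 55.8 at P2, 68.9 and 70.9 at P4, and 55.9 and 51.8 at P6. The last 4 stages were lower, at 20.9 and 13.9 at P10, 24.9 and 26.4 at P14, 9.67 and 10.9 at P21, and 16.7 and 13.7 at P28. E14 was above all other libraries, E16 and E12 overlapped, and every library from P10 on was below every library of P0 to P6.

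Onecut2 rose by 2.28 ± 0.35 (log2) from E11 to E12 (adjusted p = 0.000572), and by 3.16 ± 0.36 over E11 to E14 (adjusted p = 8.95e-06). Without E11 replicate 1 the E11 to E14 change was 4.19 and without replicate 2 it was 2.57, both called. It fell by 1.61 ± 0.34 from E14 to P0 (adjusted p = 0.00158), and by 2.38 ± 0.36 from P0 to P10 (adjusted p = 5.02e-05). The later fall lay mostly between P6 and P10, where Onecut2 fell by 1.63 ± 0.35 (adjusted p = 0.00332). It also fell by 1.32 ± 0.36 from P14 to P21 (adjusted p = 0.0124), a call that was lost without P14 replicate 2 (0.0617), P21 replicate 1 (0.0923) or P21 replicate 2 (0.0581), within a range of 6.73e-06 to 0.0923 over its alternatives. Its P21 mean was 3.71% of the E14 mean. The 2 annotated transcripts differ by 2 bases in length, and their estimated shares were not read.

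Onecut3 (ENSMUSG00000045518, protein coding, plus strand, chr10:80494835-80517276) is the third paralog, with a single annotated transcript in the files. It stood at 0.920 and 0.206 CPM at E11, 2.60 and 1.63 at E12, 14.8 and 13.2 at E14, and 12.7 and 12.3 at E16. It then stood at 4.51 and 5.49 at P0, 4.25 and 4.101 at P2, 3.91 and 3.53 at P4, and 4.29 and 5.24 at P6. The last readings were 5.04 and 4.41 at P10, 6.82 and 6.62 at P14, 6.02 and 8.02 at P21, and 5.02 and 4.67 at P28. E14 and E16 lay above all other libraries without overlapping each other, while P21 with P14, P0 with P28, P28 with P6 and P6 with P10 overlapped. Unlike the other 2 Onecut genes, its P21 libraries were not below its P0 libraries.

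Onecut3 rose by 1.89 ± 0.39 (log2) from E11 to E12 (adjusted p = 0.00237) and by 2.73 ± 0.33 from E12 to E14 (adjusted p = 7.23e-06). Over E11 to E14 it rose by 4.62 ± 0.38 (adjusted p = 3.14e-08), which became 6.07 without E11 replicate 1 and 3.93 without replicate 2, while the E11 to E12 change became 3.33 and 1.19, all called. It fell by 1.32 ± 0.31 from E16 to P0 (adjusted p = 0.00475), a call lost only without P0 replicate 1 among its 31 alternatives (adjusted p = 0.0627, range 2.58e-06 to 0.0627). From P0 to P10 it moved by -0.08 ± 0.31 (adjusted p = 0.857), and from P10 to P28 by 0.04 ± 0.31 (adjusted p = 0.949). Both late values changed sign in some alternatives.

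The proportions of the Onecut genes were compared between the late embryo (E14 and E16) and the mature retina (P21 and P28), with 4 libraries on each side. The log2 ratio of Onecut2 to Onecut3 was 3.96 ± 0.39 (SD, n = 4) in the embryo and 1.09 ± 0.63 (SD, n = 4) in the mature retina. The ratio of Onecut1 to Onecut3 was 1.52 ± 0.20 and -0.29 ± 0.33, and that of Onecut1 to Onecut2 was -2.45 ± 0.23 and -1.38 ± 0.69. The 4 libraries of each side did not overlap for any of the 3 pairs. The differences of -2.87, -1.81 and 1.06 each had p = 0.0286 in an exact two-sided permutation test, also after adjustment over the 3 pairs, the smallest p that 4 against 4 can give. Onecut3 thus made up a larger part of the 3 Onecut genes late than early, and Onecut2 a smaller part. Gene length cancels in these differences. Each side pools 2 stages, so the test and the SDs treat libraries of different ages as replicates. Each ratio follows from the other 2, so the 3 p-values are not separate evidence. With E16 against P28 alone, the Onecut1 to Onecut2 difference was 0.33, and 2 against 2 cannot give a p below 0.333.

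Lhx1 (ENSMUSG00000018698, protein coding, minus strand, chr11:84518284-84525535) encodes a LIM homeodomain factor used by horizontal cells after they leave the cell cycle. It had 0 and 4 counts at E11 and 0 in both libraries of E12, and stood at 0.415 and 1.95 CPM (13 and 55 counts) at E14 and at 5.93 and 2.35 at E16. Around birth it stood at 2.35 and 3.15 at P0, 6.32 and 2.47 at P2, 4.25 and 3.21 at P4, and 5.18 and 8.10 at P6. Later it stood at 7.25 and 6.68 at P10, 12.8 and 12.9 at P14, 5.95 and 5.26 at P21, and 6.14 and 5.597 at P28. Both P14 libraries lay above all others, and from E16 to P28 the other stages overlapped at 6 of the places in their order of means. The 2 libraries of a stage differed 4.70-fold at E14, 2.52-fold at E16 and 2.56-fold at P2, so its course before P4 is known only roughly.

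Against a floor of 3 counts over the 2 libraries of E12, the Lhx1 mean at E14 was at least 22.4-fold higher (adjusted p = 0.00234 in the fit). That call was lost in 1 of 31 alternatives, without the 3 libraries high in lens genes, which left a lone library at E12 and at E14. Lhx1 had 13 and 55 counts in the E14 libraries, so the bound rests mainly on replicate 2 and is lower for replicate 1 alone. It rose by 4.04 ± 1.00 (log2) from E11 to E14 (adjusted p = 0.00571), and this call was lost without E11 replicate 1 (adjusted p = 0.0551), without E14 replicate 2 (0.112), and without the 3 libraries high in lens genes (0.369, with a log2 change of 1.57), over a range of 1.55e-05 to 0.369. The E14 library with more Lhx1 was also the one high in lens genes. From P0 to P10 the log2 change was 1.34 ± 0.57 (adjusted p = 0.065), which passed in 6 of 31 alternatives (adjusted p from 0.0128 to 0.255). From P14 to P21 it was -1.201 ± 0.55 (adjusted p = 0.122), although the libraries of those stages did not overlap.

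The long noncoding gene Lhx1os (ENSMUSG00000087211) starts on the opposite strand close to Lhx1 and points away from it, with no overlap. Its level was 0.0328 and 0.0686 CPM at E11 and 0.0958 and 0.142 at E14, then 1.08 and 0.958 at E16, 3.05 and 4.08 at P10, 2.41 and 3.78 at P14, and 1.23 and 0.754 at P28. Like Lhx1, it was near 0 through E12 and was higher at P10 and P14 than in any library up to E16. The 200 bases up to the first base of Lhx1 are shown because both starts lie in them (chr11:84525535-84525734, minus strand, RefSeq promoter table of GRCm38.p6). Capitals mark the 125 bases from the base next to the Lhx1os start to the first base of Lhx1.
Lhx1: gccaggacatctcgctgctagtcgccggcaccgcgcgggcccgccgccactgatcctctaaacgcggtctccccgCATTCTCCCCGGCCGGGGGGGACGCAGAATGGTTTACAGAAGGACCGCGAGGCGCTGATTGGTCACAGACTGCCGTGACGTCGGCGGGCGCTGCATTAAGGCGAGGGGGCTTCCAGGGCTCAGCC

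Prox1 (ENSMUSG00000010175, protein coding, minus strand, chr1:190118035-190170714) encodes a homeodomain factor that promotes exit from the cell cycle and horizontal cell fate and is also needed for lens fibre formation. It stood at 105.8 and 32.3 CPM at E11, 63.8 and 127 at E12, 58.5 and 74.8 at E14, and 119.9 and 109 at E16. It stood at 141 and 123 at P0, 140.1 and 149 at P2, 143 and 138 at P4, and 228 and 184 at P6. The highest levels came at P10 (332 and 280.4) and P14 (401 and 443), followed by 206 and 225 at P21 and 253 and 223 at P28. Both P14 libraries lay above all others and P10 came next without overlap, while P28, P21 and P6 overlapped in turn.

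Prox1 rose by 1.21 ± 0.39 (log2) from P0 to P10 (adjusted p = 0.0198). That call was lost without P0 replicate 1 (0.0653), P0 replicate 2 (0.106) or P10 replicate 1 (0.0906), within a range of 1.68e-07 to 0.106 over 31 alternatives. From P14 to P21 its log2 change was -0.97 ± 0.39 (adjusted p = 0.0799). From E14 to P0 it was 0.99 ± 0.40 (adjusted p = 0.0633).

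In the embryo, Prox1 was higher in the library with more lens RNA at each of the 3 stages where lens genes were high in 1 library. At E11 the libraries with 3224 and 23.0 CPM of lens genes had 105.8 and 32.3 CPM of Prox1. At E12 those with 3086 and 228 CPM had 127 and 63.8, and at E14 those with 2308 and 63.3 CPM had 74.8 and 58.5. Other retinal genes also differed between the E11 libraries in that direction, Onecut1 23.0-fold, Onecut2 3.09-fold and Onecut3 4.47-fold against 3.27-fold for Prox1, and Foxn4 read 62.5 and 5.66 CPM. The part of lens RNA in the Prox1 levels was not tested. At E16, with 2.196 and 2.597 CPM of lens genes, Prox1 read 119.9 and 109. Without the 3 libraries high in lens genes, with the lone library left at each stage assumed to vary like the others, the E11 to E14 change of Prox1 turned from -0.05 ± 0.39 (adjusted p = 0.951) to 0.86 (adjusted p = 0.000934, range 0.000934 to 1 over 31 alternatives), still under 2-fold. Without E11 replicate 1 alone it was 1.05 (adjusted p = 0.0138). The E14 to P0 change became 1.17 (adjusted p = 1.41e-05) and then passed both thresholds.

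**Figure D2:**
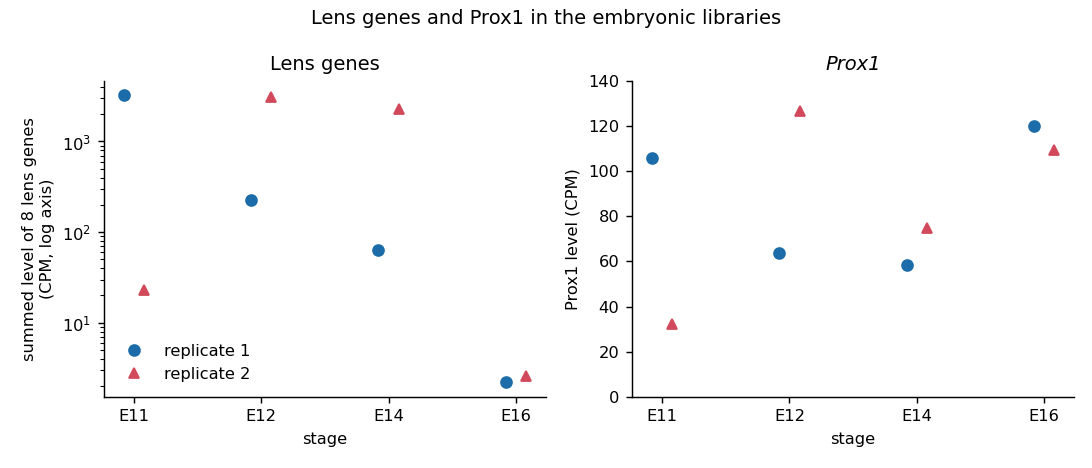
Left, summed level of 8 lens genes (CPM, log axis); right, Prox1 level (CPM, axis from 0), for each of the 8 embryonic libraries, with the 2 replicates as different symbols. The library with more lens RNA at E11, E12 and E14 also has more Prox1 (105.8 against 32.3 CPM at E11), while at E16 both libraries are low in lens genes and have 119.9 and 109 CPM of Prox1.

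Prox1 overlaps 2 antisense genes, Prox1os by 419 bases and Gm28172 by 964. Prox1os was at most 7.27 CPM and Gm28172 at most 0.899 CPM in any library, well under Prox1. The libraries were directional per the labels, but the sources used here do not give whether counting used strand. The main coding transcript took at least 93.3% of the Prox1 counts in each library.

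Tfap2b (ENSMUSG00000025927, protein coding, plus strand, chr1:19208914-19238576) encodes an AP-2 transcription factor of horizontal and amacrine cells. It stood at 20.8 and 16.09 CPM at E11, 13.6 and 18.9 at E12, 20.5 and 19.8 at E14, and 194 and 160.4 at E16. It continued to 259.7 and 240.2 at P0 and 447 and 478 at P2, and then read 370.1 and 376 at P4, 290.2 and 279.9 at P6, and 174 and 155 at P10. The last stages were 311 and 327 at P14, 171 and 198 at P21, and 193 and 161 at P28. The 6 libraries of E11 to E14 overlapped at a low level, all 18 later libraries lay above them, and the P2 libraries lay above all others.

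Tfap2b rose by 3.14 ± 0.15 (log2), 8.78-fold, from E14 to E16 (adjusted p = 2.47e-10), and by 3.63 ± 0.16 over E14 to P0 (adjusted p = 7.73e-12). Its E11 to E14 change was 0.13 ± 0.15 (adjusted p = 0.562). From P0 to P2 it was 0.89 ± 0.14 higher (adjusted p = 0.000394), from P6 to P10 0.79 ± 0.14 lower (adjusted p = 0.000437), from P10 to P14 0.96 ± 0.14 higher (adjusted p = 0.000181) and from P14 to P21 0.79 ± 0.14 lower (adjusted p = 0.000412). Those 4 steps passed the adjusted p but were under 2-fold, and the groups did not overlap in any of them.

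Calb1 (ENSMUSG00000028222, protein coding, plus strand, chr4:15881264-15908064) encodes the calcium buffer calbindin. It stood at 1.18 and 1.48 CPM at E11, 2.13 and 0.916 at E12, 2.36 and 1.39 at E14, and 2.26 and 3.37 at E16. It stood at 4.57 and 2.71 at P0, 3.75 and 8.46 at P2, 8.70 and 7.83 at P4, and 16.18 and 13.4 at P6. It then stood at 32.9 and 35.1 at P10, 62.4 and 67.8 at P14, 56.3 and 55.0 at P21, and 77.7 and 68.7 at P28. From E11 to P4 neighbouring stages overlapped, and from P4 on no stage overlapped the next in the order of means, with P21 between P10 and P14.

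Calb1 rose by 3.22 ± 0.35 (log2), 9.34-fold, from P0 to P10 (adjusted p = 9.32e-07), including 1.2 ± 0.32 from P6 to P10 (adjusted p = 0.011). The P6 to P10 call was lost without P6 replicate 2 (adjusted p = 0.106) or P10 replicate 2 (0.0551), over a range of 2.91e-06 to 0.106. It rose by a further 1.11 ± 0.31 from P10 to P28 (adjusted p = 0.0126). That call rested on the 2-fold limit and the libraries: it was lost with library size alone (0.99), with summed transcript estimates (0.95), and without P10 replicate 1 (1.06), P10 replicate 2 (1.15) or P28 replicate 1 (1.01), with adjusted p between 8.83e-05 and 0.0787 over all 31 alternatives.

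The embryonic Calb1 counts were few, 27 to 109 per library from E11 to E16, and part of them fell on the retained intron transcript Calb1-002. Its estimated share was 36.7% and 15.4% at E11 and 1.49% and 1.19% at P28. The main coding transcript, Calb1-001, took 63.3% and 84.6% at E11 and 98.5% and 98.8% at P28. With such counts, the shares before birth are uncertain.

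Sept4 (ENSMUSG00000020486, protein coding, plus strand, chr11:87568903-87590539) encodes a septin, a GTP-binding protein of cytoskeletal filaments. It stood at 4.11 and 3.94 CPM at E11, 4.55 and 4.95 at E12, 14.05 and 11.9 at E14, and 22.5 and 19.6 at E16. It stood at 36.9 and 41.9 at P0, 54.2 and 58.1 at P2, 71.6 and 75.4 at P4, and 114.5 and 114.3 at P6. It then stood at 145 and 165 at P10, 161.5 and 167 at P14, 167 and 155 at P21, and 139.7 and 128 at P28. Both libraries of each stage from E12 to P10 lay above both libraries of the stage before, and P10, P14 and P21 overlapped.

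Sept4 had the steadiest course of the 8, with only 2 overlaps among the 11 neighbouring places in its order of means, against 4 to 7 for the others. It rose by 1.69 ± 0.12 (log2) from E11 to E14 (adjusted p = 5.11e-09), by 1.60 ± 0.11 from E14 to P0 (adjusted p = 2.95e-09) and by 1.97 ± 0.11 from P0 to P10 (adjusted p = 2.82e-11). From P10 to P28 it moved by -0.21 ± 0.10 (adjusted p = 0.128). Of its 10 steps after E12 only E12 to E14 reached 2-fold (1.45 ± 0.12, adjusted p = 6.79e-08), while the next 6 each passed the adjusted p at less than 2-fold. Sept4 overlaps the coding gene Gm11492 by 348 bases, which had at most 2 counts in any library.

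The files list 18 Sept4 transcripts, 9 of them with a retained intron, so the estimated shares of single transcripts are uncertain. The largest pooled shares went to the coding transcripts Sept4-002 with 16.197% and Sept4-003 with 15.4%, which start at different places. The grouping of transcripts by start was chosen after their values were seen, and is given with no test. Sept4-003, from the downstream start, took 37.0% and 29.1% at E11, 27.2% and 33.1% at E14, 17.2% and 19.7% at P0, 11.8% and 12.9% at P10, and 9.78% and 1.46% at P28. Sept4-002, from the upstream start, took 0% and 12.0% at E11, 0% in both libraries at E14, 0% and 4.995% at P0, 21.8% and 22.5% at P10, and 18.1% and 23.5% at P28. Sept4-003 was the larger of these in every library up to P0 and Sept4-002 in every library from P10 on, with P2 split and Sept4-003 larger at P4 and P6. Summed over the 7 transcripts that start between 87578401 and 87578484 and the 5 that start between 87581041 and 87581074, the upstream share was 24.9% and 19.5% at E11 and 42.7% and 48.6% at P28, and the downstream share 45.7% and 36% at E11 and 18.4% and 15.4% at P28. The upstream share was not steady in between, at 27.2% and 21.7% at P4 and 41.3% and 42.0% at P10, and at E12 the 2 libraries disagreed, with 58.5% and 11.7%.

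**Figure D3:**
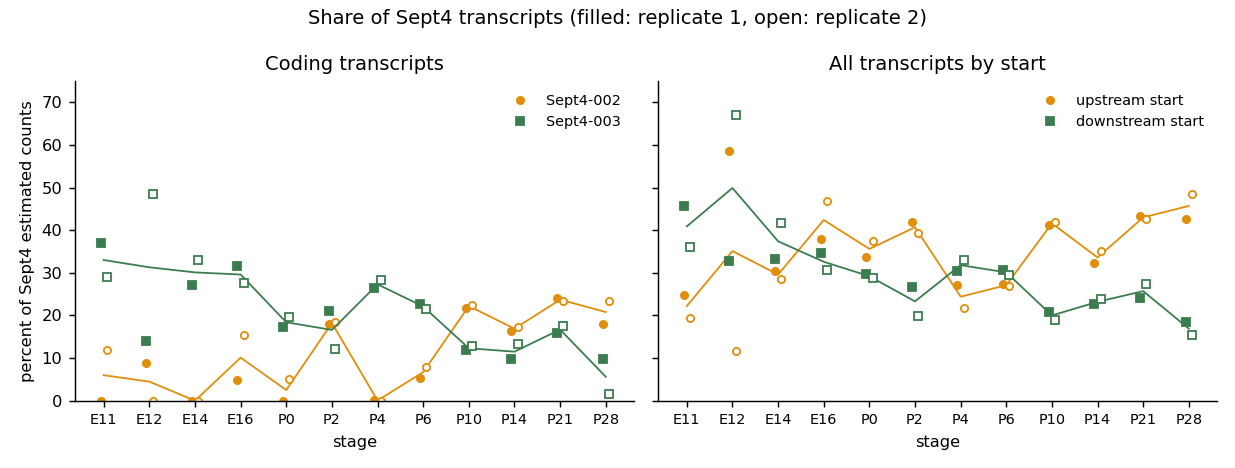
Percent of the estimated Sept4 counts of each library (vertical axis) by stage, for 2 coding transcripts (left) and for all transcripts grouped by their start (right); filled symbols are replicate 1, open symbols replicate 2, and lines join stage means. Sept4-003 is at 37.0% and 29.1% at E11 and at 9.78% and 1.46% at P28, and Sept4-002 at 18.1% and 23.5% at P28.

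The 200 bases before the RefSeq start nearest each of these groups are shown, the upstream RefSeq start lying a few bases before the first base of Sept4-002, since the shares of the transcripts from them differed in opposite directions between E11 and P28 (RefSeq promoter table of GRCm38.p6, plus strand). They are chr11:87578189-87578388 and chr11:87580861-87581060. Capitals mark CAGCTG, an E-box. It and ATTGAT, the core of the Onecut site, were searched on both strands.
Sept4 upstream start: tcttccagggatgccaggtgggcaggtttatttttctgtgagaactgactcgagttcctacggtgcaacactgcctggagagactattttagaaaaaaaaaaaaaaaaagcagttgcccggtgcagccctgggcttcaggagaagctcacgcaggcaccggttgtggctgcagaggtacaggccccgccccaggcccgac
Sept4 downstream start: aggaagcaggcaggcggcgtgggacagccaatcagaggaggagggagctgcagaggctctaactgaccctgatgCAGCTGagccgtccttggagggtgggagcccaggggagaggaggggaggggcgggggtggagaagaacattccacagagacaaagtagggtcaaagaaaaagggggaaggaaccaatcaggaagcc
The downstream stretch held 1 CAGCTG and the upstream stretch none, where 16.3% of 32851 RefSeq windows of 300 bases hold this motif. ATTGAT was in neither. It was found once in the only Tfap2b window (chr1:19211804-19212103), which belongs to the internal start of Tfap2b-003 with 1.66% of the pooled counts and not to the main transcript Tfap2b-001 with 96.8%, and not in the windows of Onecut1, Lhx1 or Prox1, against 7.54% of all windows. These matches describe letters only. RefSeq windows were matched for 5 of the 8 genes.

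Between E11 and E14, 5 of the 8 genes were called higher (Onecut1, Onecut2, Onecut3, Lhx1 and Sept4), where 8.69% of all genes were, and 0 were called lower, where 5.43% were. Their median log2 change was 2.42, against 0 over all genes tested. Tfap2b, Prox1 and Calb1 moved by at most 0.51 in either direction and did not pass. The genes called were those whose E14 libraries lay above both E11 libraries. E11 libraries were made from less total RNA than E14 libraries, so input and age cannot be told apart here.

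From E14 to P0 the 8 genes split. Tfap2b and Sept4 were called higher, 2 of 8 against 11% of all genes, and the 3 Onecut genes lower, 3 of 8 against 6.16%. Lhx1, Prox1 and Calb1 had values of 1.23, 0.99 and 0.95 and did not pass. The Lhx1 value ran from 0.49 without E14 replicate 1 to 2.71 without E14 replicate 2 (adjusted p = 0.0146), and passed also with summed transcript estimates (2.38, 1.52e-06) and without the 3 libraries high in lens genes (2.71, 0.01), over a range of adjusted p from 1.52e-06 to 0.6. Calb1 passed with library size alone (1.06), with summed transcript estimates (1.32) and without P0 replicate 2 (1.27), and Prox1 with library size alone (1.10) and without the 3 libraries high in lens genes (1.17). With library size alone the count of 5 called became 7. In that fit 2730 of all genes were called higher and 1072 lower, against 2408 and 1347 with TMM. Leaving out the 3 libraries high in lens genes left a lone library at E14, assumed to vary like the others.

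From P0 to P10, Prox1, Calb1 and Sept4 were called higher, 3 of 8 against 15.1% of all genes. Onecut1 and Onecut2 were called lower, 2 of 8 against 12.3%. The count of 5 became 3 without P0 replicate 1, P0 replicate 2 or P10 replicate 1. Tfap2b was lower by 0.60 ± 0.14 (adjusted p = 0.00151), under 2-fold.

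Few changes were called between P10 and P28, a comparison of end points that leaves out the stages between, which are given below. From P10 to P28 only Calb1 was called higher, 1 of 8 against 6.27% of all genes, and 0 of 8 lower, against 4.87%. The single call was lost with library size alone, with summed transcript estimates, and without P10 replicate 1, P10 replicate 2 or P28 replicate 1. The median log2 change of the 8 genes was -0.20, against 0.01 over all genes.

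**Figure D4:**
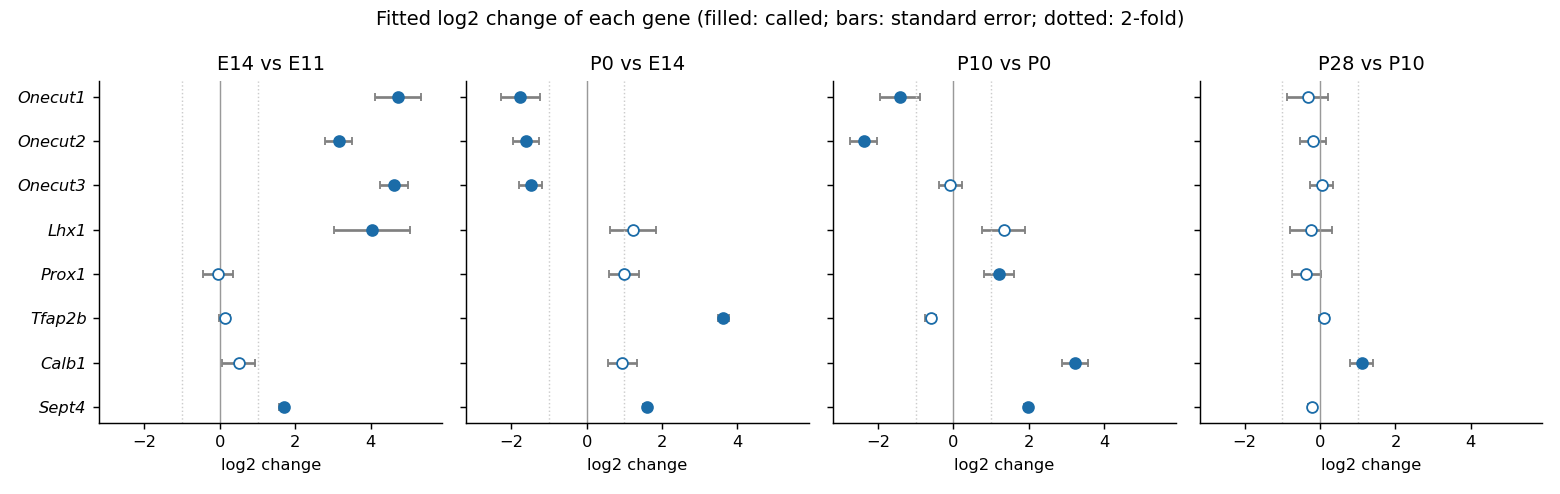
Fitted log2 change of each of the 8 genes in 4 comparisons of stages (later against earlier), with bars of 1 standard error and filled symbols for genes called at an adjusted p under 0.05 and at least 2-fold; dotted lines mark 2-fold. The Onecut genes lie at 4.74, 3.16 and 4.62 in E14 vs E11 and at -1.76, -1.61 and -1.49 in P0 vs E14, while Sept4 is above 0 in the first 3 comparisons; the E14 vs E11 values of the Onecut genes are 8.30, 4.19 and 6.07 without E11 replicate 1.

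Between neighbouring stages, 12 of 88 steps of the 8 genes were called. From E11 to E12, 3 of 8 were called in either direction (the Onecut genes, all higher), against 7.91% of all genes. From E12 to E14, 4 of 8 were called (Onecut1, Onecut3, Lhx1 and Sept4, all higher), against 10.8%. From E14 to E16 it was Tfap2b alone, 1 of 8 against 7.03%, and from E16 to P0 Onecut3 alone, lower, 1 of 8 against 7.7%.

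No gene of the 8 was called from P0 to P2, P2 to P4 or P4 to P6, where 3.9%, 11% and 2.58% of all genes were. At an unadjusted p under 0.05 there were 3, 2 and 3 of 8 in these steps. No share of all genes was taken at that unadjusted threshold. The unadjusted counts given here and for the later steps are therefore not read as a result. By adjusted p alone there were 2, 1 and 1 of 8, against 17.3%, 33.6% and 8.22% of all genes. From P6 to P10, Onecut2 was called lower and Calb1 higher, 2 of 8 against 7.78%. From P10 to P14 there was none, against 4.48%, with 2 of 8 at an unadjusted p under 0.05. By adjusted p alone it was also 2 of 8, against 18.6% of all genes. From P14 to P21 Onecut2 was called lower, 1 of 8 against 9.24%, and from P21 to P28 none, against 0.833%, with 1 of 8 at an unadjusted p under 0.05. In that last step none passed by adjusted p alone, against 4.84% of all genes.

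Between P10 and P21 the values went up and then down in most of the set. All 8 genes had a higher value at P14 than at P10, with a median log2 change of 0.73 against -0.01 over all genes, of which 48.9% had a higher value; with library size alone, Sept4 was lower and the other 7 higher. From P14 to P21, 7 of 8 had a lower value under all 3 scalings tried, Onecut3 being the exception, with a median of -0.80 against -0.01. Of these 16 values, Tfap2b passed the adjusted p in both steps, Calb1 in the first and Onecut2 in the second, and Onecut2 was also past 2-fold. That was 2 of 8 by adjusted p alone in each step, near the 18.6% and 29.1% of all genes that passed. The rod list of 8 genes summed to 32750 to 33750 CPM at P14 and 76270 to 83600 CPM at P21. Other lists were also higher at P14 than on either side: ganglion genes summed to 281 to 299 CPM at P10, 465 to 478 at P14 and 370 to 379 at P21, and amacrine genes to 535 to 618, 949.8 to 981 and 740.3 to 814. The part of other cell types in these values was not tested.

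Levels of different genes were compared per transcript length, in TPM (transcript estimates divided by length and scaled to a common total) computed from the transcript estimates. At E14, Onecut2 led with 38.2 ± 0.89 TPM (SD, n = 2), followed by Sept4 with 24.6 ± 2.4, Onecut1 with 22.5 ± 1.2 and Prox1 with 15.9 ± 3.0. Tfap2b followed with 6.83 ± 0.12, Onecut3 with 5.46 ± 0.34, Calb1 with 1.11 ± 0.38 and Lhx1 with 0.673 ± 0.47. Sept4 and Onecut1 overlapped, as did Calb1 and Lhx1. At P14 the order was Sept4 with 351 ± 1.6, Tfap2b with 123 ± 1.9, Prox1 with 113 ± 5.7, Calb1 with 48.2 ± 2.2 and Lhx1 with 9.60 ± 0.67, and the Onecut genes were the 3 lowest with 5.79 ± 1.0 for Onecut1, 3.95 ± 0.10 for Onecut2 and 3.03 ± 0.16 for Onecut3. By this measure Sept4 was above each other gene of the set at P14, and Lhx1, the lowest at E14, was above all 3 Onecut genes. The place of Sept4 depends on the measure: in CPM at P14 its mean of 164 lay below Prox1 (422) and Tfap2b (319). Its TPM sums 18 transcripts, some short and noncoding, whose shares are uncertain. Retained intron transcripts took 30.9% and 32.4% of its estimated counts at P14.

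Across the 12 stage means of log2 CPM, Onecut1 correlated with Onecut2 (r = 0.73) and Onecut3 (r = 0.79), but Onecut2 and Onecut3 had r = 0.26. Lhx1 and Sept4 had r = 0.93, Prox1 and Calb1 0.92, and Onecut2 and Calb1 -0.78. These describe 12 stages measured in the same libraries and are given with no test.

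By the same measure, the genes most like each of the 8 were sought among 12832 genes that reached 5 CPM or more in at least 1 stage mean. Closest to Onecut1 were Pou4f2 (r = 0.976), a POU factor of ganglion cells, the netrin receptor gene Dcc (0.965) and Rab15 (0.96). Closest to Onecut2 were the Notch target Hey1 (0.973), the nicotinic receptor subunit Chrna3 (0.963) and Bcl11a (0.96), and closest to Onecut3 were Thsd7b (0.972), Nab1 (0.966) and Syt13 (0.965). The summed level of 7 ganglion cell genes was 386 to 434 CPM at E14 and 593 to 615 at E16, against 332 to 336 at P0, and its part in the Onecut levels was not tested.

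Tfap2b was most like Syt6 (0.994), Wipi1 (0.979) and Ablim3 (0.977), all highest at P2. Lhx1 was most like Apba1 (0.994), Ube2ql1 (0.993) and March4 (0.989), and Prox1 most like Fam120c (0.973), Rabgap1l (0.971) and Unc5d (0.971), all 6 highest at P14. Calb1 was most like Osbp2 (0.996), Fryl (0.996) and Gramd1b (0.995), all highest at P28, and Sept4 most like Rd3 (0.997), Sv2b (0.997) and Tcta (0.996). Ranked by Spearman correlation, only 4 of these 24 genes were again among the closest 3. The 8 amacrine genes summed to 64.2 to 67.3 CPM at E11, 690.4 to 710 at P2 and 949.8 to 981 at P14, and their part in the levels of Tfap2b, Prox1 and Calb1 was not tested. The 8 rod genes summed to 383.7 to 428.2 CPM at P0 and 32750 to 33750 at P14. The 6 bipolar genes summed to 48.06 to 53.85 and 1352 to 1393 at those stages. The part of these and other cell types in the Sept4 level was not tested.

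A list of 6 factors, called upstream factors here, held Foxn4, Ptf1a, Rorb, Sall3, Pax6 and Tfap2a. The name is only a label of the list. Tfap2 factors act in differentiation, as said above, and Sall3, Pax6 and Tfap2a had their highest stage mean at P0 or P2. Between E11 and E14, 3 of 6 were called higher (Foxn4, Ptf1a and Rorb) and 1 lower (Tfap2a), with a median log2 change of 1.28, where 8.69% and 5.43% of all genes were. From E14 to P0, 2 were called higher (Sall3 and Tfap2a) and 0 lower, the count lower being 1 without E11 replicate 1, without E11 replicate 2 or without the 3 libraries high in lens genes. Foxn4 had the lowest value there, -1.20 ± 0.67 (adjusted p = 0.187), and its libraries of those stages did not overlap. From P0 to P10 none rose and 5 of 6 fell, all but Rorb, against 12.3% of all genes, with a median of -1.55, and from P10 to P28 none passed, with 1 lower by DESeq2, without E11 replicate 1, without E11 replicate 2 or without the 3 libraries high in lens genes. Of all genes, 11% were called higher and 6.16% lower from E14 to P0, and 15.1% higher from P0 to P10. From P10 to P28, 6.27% were called higher and 4.87% lower. The counts of 0 lay near or below those shares. The median over all genes tested was between 0 and 0.01 in each of these comparisons.

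Foxn4 stood at 182 and 199 CPM at E14, its highest stage, and at 86.2 and 74.1 at P2, 8.19 and 10.08 at P4, 0.321 and 0.263 at P10 and 0 at P21 and P28. The 6 progenitor genes summed to 4371 to 4671 CPM at P2 and 1405 to 1450 at P4, and their part in the Foxn4 level was not tested. Ptf1a was at 0 in both E11 libraries, at 4.85 and 2.70 at E14, at 10.17 and 11.4 at E16, its highest stage, and at 0 in both P10 libraries. Of the 6 factors, Foxn4 was highest at E14, as the Onecut genes were, Ptf1a and Rorb at E16 (Rorb with P0 at 99.2% of it), Sall3 and Pax6 at P0, and Tfap2a at P2. Tfap2a, a paralog of Tfap2b, stood at 3.16 and 2.98 at E14, 36.1 and 30.0 at E16 and 86.3 and 100.5 at P2, its highest stage, which was also that of Tfap2b. The fall of Tfap2a from E11 to E14 was not called without E11 replicate 2, which had 13.75 CPM against 4.66 in replicate 1.

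Genes of mature horizontal cell function formed a list of 8, holding the GABA transporter gene Slc32a1, the GABA synthesis genes Gad1 and Gad2, the connexin gene Gja10, the neurofilament genes Nefl, Nefm and Nefh, and the chloride transporter gene Slc12a7. The GABA genes are also used by amacrine cells and the neurofilament genes by ganglion cells. Between E11 and E14, 6 of 8 were called higher and none lower (median log2 change 3.53, where 8.69% and 5.43% of all genes were), from E14 to P0 4 higher and 3 lower (0.44; 11% and 6.16% of all genes), from P0 to P10 4 higher and 2 lower (1.11; 15.1% and 12.3%), and from P10 to P28 none in either direction (0.71; 6.27% and 4.87%). In that last comparison Slc32a1 (0.93), Gad1 (0.78), Gad2 (0.90) and Nefh (0.80) passed the adjusted p at less than 2-fold.

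Gja10, a connexin of horizontal cell axon terminals, stood at 0.575 and 0.604 CPM at E14, 0.159 and 0.189 at P0, 2.92 and 2.30 at P10 and 4.60 and 5.07 at P14, its highest stage. Slc32a1 stood at 0.638 and 0.923 at E14, 26.3 and 23.8 at P10 and 72.1 and 67.8 at P14, also its highest. Nefh stood at 0.894 and 0.639 at E14, 61.3 and 51.5 at P10 and 142 and 139 at P14. Of the 8 mature genes, Gja10, Slc32a1, Nefh and Nefl were highest at P14, as were Lhx1, Prox1 and Sept4, while Slc12a7 was highest at E11, Nefm at E14, Gad2 at P0 and Gad1 at P21.

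**Figure D5:**
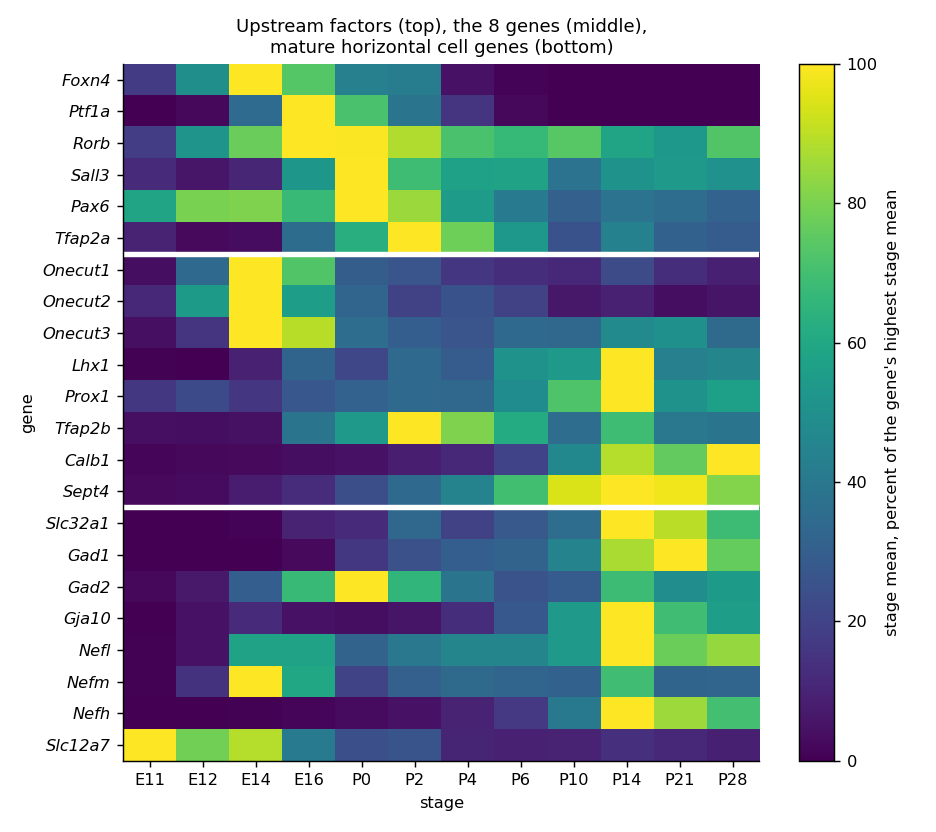
Stage mean of each gene as a percent of its highest stage mean (colour scale from 0 to 100), for upstream factors (top), the 8 horizontal cell genes (middle) and genes of mature function (bottom), over the 12 stages. Foxn4 and the Onecut genes are brightest at E14, Tfap2a and Tfap2b at P2, and Lhx1, Prox1, Sept4, Gja10, Slc32a1, Nefh and Nefl at P14; the other mature genes are brightest at E11 (Slc12a7), E14 (Nefm), P0 (Gad2) and P21 (Gad1).

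Relatives of the 8 genes from the same families were read in the same comparisons. Of 15 relatives (AP-2, Prox, LIM, calbindin and septin genes, Tfap2a being also an upstream factor), 4 were called higher and 1 lower from E11 to E14, 4 higher and 0 lower from E14 to P0, 1 higher and 4 lower from P0 to P10, and 0 in either direction from P10 to P28. All genes were called higher and lower in 8.69% and 5.43%, 11% and 6.16%, and 15.1% and 12.3% of cases in the first 3 comparisons, and the counts of 0 and 1 of 15 lay near or below those shares. Their medians were 0.02, -0.06, -0.52 and -0.22. Calb2, which encodes the calcium buffer calretinin, rose by 4.78 ± 0.42 from E11 to E14 and by 2.42 ± 0.29 from E14 to P0. Among the 8 septin relatives, Sept5 alone was called higher in any of these comparisons, by 2.50 ± 0.13 from E11 to E14 (adjusted p = 1.35e-10). Sept9 fell by 1.74 ± 0.17 from P0 to P10 (adjusted p = 8.73e-08) and Sept11 by 1.34 ± 0.11 (adjusted p = 6.83e-09), where Sept4 rose by 1.97. Of the AP-2 genes, Tfap2a rose by 4.25 and Tfap2c by 2.81 from E14 to P0, and Tfap2d had a value of 0.87 (adjusted p = 0.0753). Tfap2e had 1 and 0 counts at E14 and 119 and 122 at P0, and was called higher; no fold is given.

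All 8 genes were in the authors' deposited table of 12718 genes. In the authors' deposited table the log2 change from E11 to E14 was 6.05 for Onecut1, 3.38 for Onecut2, 4.90 for Onecut3, 4.24 for Lhx1 and 1.70 for Sept4. For Prox1 the authors' deposited table gives 0.18, where the fit here gave -0.05. The authors' deposited table gives its largest change against E11 at P14 for Prox1 (2.86), Lhx1 (8.11) and Sept4 (5.37), at P2 for Tfap2b (4.68) and at P28 for Calb1 (5.82). It puts Prox1 and Calb1 in its cluster 19, Lhx1 and Sept4 in cluster 16, and the 3 Onecut genes in clusters 29, 30 and 14, so none of the Onecut genes share a cluster.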

How the data were processed

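Gene and transcript values are estimated counts that the authors deposited per Ensembl gene and transcript. The submitters' processing notes name build GRCm38.p5 with edgeR 3.13.9 and kallisto 0.42.4, without saying what each did; the summing of transcripts to genes is not given in those sources. The authors also deposited log2 changes against E11, cluster numbers and adjusted p-values, per the file headers; the deposited CPM table was not used.

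Counts were rounded, filtered with filterByExpr by stage (minimum count 10), scaled by TMM and fitted with edgeR 4.0.16 (R 4.3.3; robust quasi-likelihood, 1 coefficient per stage, 24 libraries, 12 residual degrees of freedom). A gene was called at a Benjamini-Hochberg adjusted p under 0.05 over 21858 genes and a change of at least 2-fold. SE is the size of a log2 change over the root of its F statistic. Onecut ratios used log2 CPM (prior count 2) and scipy 1.17.1. The members and lists were chosen with earlier results of these data known. The genes named are all 8 members, the genes of the fixed lists, and for each member the 3 with the highest Pearson r over stage means. Gene overlaps come from GENCODE M21 (GRCm38). On simulated counts for P10 vs P0 (21002 genes), 46% of 2-fold and 68% of 4-fold changes passed the adjusted p, with 4 false passes. The 2-fold limit was not applied there, so these are not rates of the full call. Alternatives were RLE, library size alone, DESeq2 1.42.0, no filter, summed transcript estimates, a replicate block, leaving out each library and, chosen after seeing the data, leaving out 3 libraries high in lens genes.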

Additional observations from a re-analysis of the deposited data

How the results depend on the processing

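Each result was recomputed under 31 alternatives (13 for the Onecut ratios). All 8 genes stayed called over the stages in each of the 31, 4 to 5 from E11 to E14, 4 to 7 from E14 to P0, and 10 to 17 steps against 12. From P0 to P10 the count of 5 ran from 3 to 6 with a library left out. From P10 to P28 the count of 1 ran from 0 to 1 with a library left out, and was 0 with library size alone and with summed transcript estimates. Over 44 changes of single genes, 1283 of 1364 comparisons kept direction and call, 53 lost a call, 14 gained one and 14 changed sign, the last in 6 changes that had not been called. Library size alone gave Onecut3 P10 to P28 -0.083, Prox1 E11 to E14 0.013 and Tfap2b P10 to P28 -0.014. It shifted the median of all genes by 0.114 (E14 to P0) and -0.112 (P10 to P28). Summed transcript estimates gave Tfap2b E11 to E14 -0.088, and leaving out the 3 libraries high in lens genes gave Prox1 E11 to E14 0.857. With 1 library left out, sign changes lay within these ranges: Prox1 E11 to E14 -0.663 to 1.046, Tfap2b E11 to E14 -0.043 to 0.329, Onecut3 P0 to P10 -0.217 to 0.067, Onecut2 P10 to P28 -0.461 to 0.126, Onecut3 P10 to P28 -0.059 to 0.134, and Tfap2b P10 to P28 -0.032 to 0.227. The causes were not tested.

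With a replicate block the counts were 8, 5, 5, 5, 1 and 12 steps, as without it. The labels do not say that a number marks shared animals, and of 66 pairs of stages 2 had a correlation of same-numbered deviations over 0.1 (-0.0568 to 0.127). For the Onecut ratios, an exact permutation within replicate number (replicate block) left differences of 1.063, -1.807 and -2.871, each with p = 0.0556, the smallest possible. Leaving out 1 library, the exact permutation test cannot go below 0.0571; the differences ran from 0.791 to 1.309 (Onecut1 to Onecut2), -1.942 to -1.678 (Onecut1 to Onecut3) and -3.079 to -2.651 (Onecut2 to Onecut3). E16 against P28 alone gave 0.328, -1.67 and -1.998, with 0.333 the smallest p. Few counts limit Lhx1 before E16 and Calb1 before birth.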
